A study of Mus musculus with 7 samples.

Results

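The nuclear-encoded subunits of respiratory complex I were examined in small RNA libraries of crude heart mitochondria. They were taken by symbol, as protein-coding genes whose name begins with Ndufa, Ndufb, Ndufc, Ndufs or Ndufv followed by a digit, which gave 37 of 49584 listed features and of 21960 nuclear protein-coding genes. The symbols Ndufa4 and Ndufa4l2 meet this rule although Ndufa4 is now held to be a subunit of complex IV, and Ndufab1, the acyl carrier protein of complex I, lies outside it. There were 3 libraries of control mice (L/L, genotype Tefm +/+ in the labels) and 4 libraries of knockout mice (L/L, cre, genotype Tefm -/-), with age and strain not stated. Both groups carried Tefm alleles with loxP sites around an exon. Only the knockouts had cre, driven by the muscle creatine (in the labels creatinine) kinase promoter, which is active in muscle cells and not in the other cells of the heart. The design text speaks of 4 control mice, and 3 control libraries were used here. The labels number the libraries without naming mice, so p-values measure the spread between libraries, which may be partly technical. The libraries hold short RNA, so a count at an mRNA is a count of its fragments.

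Complex I takes electrons from NADH and hands them to ubiquinone, and uses the energy to pump protons out of the mitochondrial matrix. It is built from subunits encoded in the nucleus, made in the cytosol and imported, and from the ND subunits encoded in mitochondrial DNA. Its peripheral arm holds the N module, where NADH is oxidised, and the Q module, where ubiquinone is reduced, while the membrane arm has a part next to the Q module, called proximal here, and a distal part. Tefm encodes the elongation factor of the mitochondrial RNA polymerase, and thus acts on transcription of the mitochondrial genome.

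Libraries held between 973835 and 2570739 counts. Nuclear protein-coding genes took from 2.28% (knockout 1) to 18.2% (knockout 4) of them, and short RNA classes (microRNA plus snoRNA) set against them ran from -1.34 to 2.88 on the log2 scale in controls and from -2.44 to 3.11 in knockouts. Knockout 4 stood apart by its high protein-coding share. Tefm itself had 3 counts in each group, too few to check the labels. All 12 cardiomyocyte markers listed, such as Myh6 and Tnnt2, had counts, while the summed markers of liver and of skeletal muscle stayed at or under 12.1 normalised counts (CPM, counts over library size after TMM scaling) in every library.

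Counts of the subunit genes were few, which sets what can be seen. Controls 1 to 3 held 420, 885 and 530 counts of the 37 genes, and knockouts 1 to 4 held 201, 255, 370 and 764. After removal of low features (edgeR's default rule, minimum count 10) 1505 remained, among them 16 of the 37 genes. The 16 had between 73 counts (Ndufb7) and 343 counts (Ndufs1) over all libraries, and the other 21 had between 2 (Ndufb4) and 78 (Ndufc2). Of the 16, 7 reached the filter level in fewer than 3 knockout libraries and 4 in fewer than 3 control libraries, so entry was easier for some genes through the group where they were high.

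Per kb of annotated exon, levels in controls spanned from 0.119 CPM per kb for Ndufb4 to 16.9 for Ndufb10. Other high levels were those of Ndufa8 at 15.9, Ndufa2 at 13.7 and Ndufa4 at 11.8. The genes are scattered over 15 chromosomes, and their annotated exons sum to between 419 bases (Ndufa1) and 8086 bases (Ndufs1) in GENCODE M21. Ndufb4 and Ndufs5, with 2 and 6 counts, belong to genes with processed copies in the genome, and the treatment of reads with several matches is not stated. Exons of 16 of the 37 overlap another gene, and the strand setting of the counting is likewise not stated, so reads of overlapping genes may have been shared out in either way. The overlapping partners of tested genes for which a row was found had few counts, with Eef1b2, which overlaps Ndufs1, highest at 36 counts over all libraries. The 3 small RNA genes annotated inside members had 0 counts.

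Summed over all 37 genes, complex I subunit fragments were lower in every knockout library than in every control library when scaled by TMM. The sum was 423, 347 and 363 CPM in controls 1 to 3 and 307, 256, 244 and 241 CPM in knockouts 1 to 4. Means were 377 ± 40.0 CPM (SD, n = 3) and 262 ± 30.6 CPM (SD, n = 4), and the knockout mean was 0.694 of the control mean. The groups did not overlap, with control 2 lowest among controls and knockout 1 highest among knockouts. The 21 genes that missed the filter had the same order, with 105, 84.7 and 82.1 CPM against 74.8, 67.3, 64.1 and 58.0 CPM. These sums depend on the scaling: as a share of all counts the 37 genes took 0.0292% ± 0.00453 (SD, n = 3) in controls, and in knockouts the higher 0.0368% ± 0.0266 (SD, n = 4). In CPM the cardiomyocyte markers were lower as well, their 12 genes summing to 6858 to 8150 in controls and to 2866 to 4905 in knockouts with 0 called. On group means that fall was larger in proportion than the fall of the 37 genes. The sum of white blood cell markers also did not overlap, at 34.2 to 52.7 CPM and 14.5 to 29.1 CPM over 6 symbols. Among them 1 was called lower (Cd74), where 1.73% of all features were. Ptprc went the other way, with 0, 2 and 2 counts in controls and 1, 4, 4 and 9 in knockouts. The part of either list in the sums was not tested. In a crude mitochondrial preparation from heart, fewer cells of a type and less RNA per cell are among the differences that cannot be told apart.

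Within each library the share of these genes among nuclear protein-coding counts does not depend on scaling, and on this measure the groups overlapped. The 37 genes took 0.822% of nuclear protein-coding counts in control 1 (exact 95% interval 0.745 to 0.904), 0.552% in control 2 (0.517 to 0.590) and 0.670% in control 3 (0.615 to 0.730). Knockouts 1 to 4 had 0.688% (0.597 to 0.790), 0.572% (0.504 to 0.646), 0.514% (0.463 to 0.569) and 0.405% (0.377 to 0.435). Group means were 0.681% ± 0.135 (SD, n = 3) and 0.545% ± 0.118 (SD, n = 4). In both groups the share was lower the more protein-coding counts a library had, from 51111 counts in control 1 through 79048 in control 3 to 160267 in control 2, and from 29203 in knockout 1 to 188642 in knockout 4. Knockout 1, with the fewest protein-coding counts, lay above controls 2 and 3. Controls 1 and 2 differed from each other beyond their intervals, which cover counting error only. The part of library composition in the shares was not tested.

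**Figure D1:**
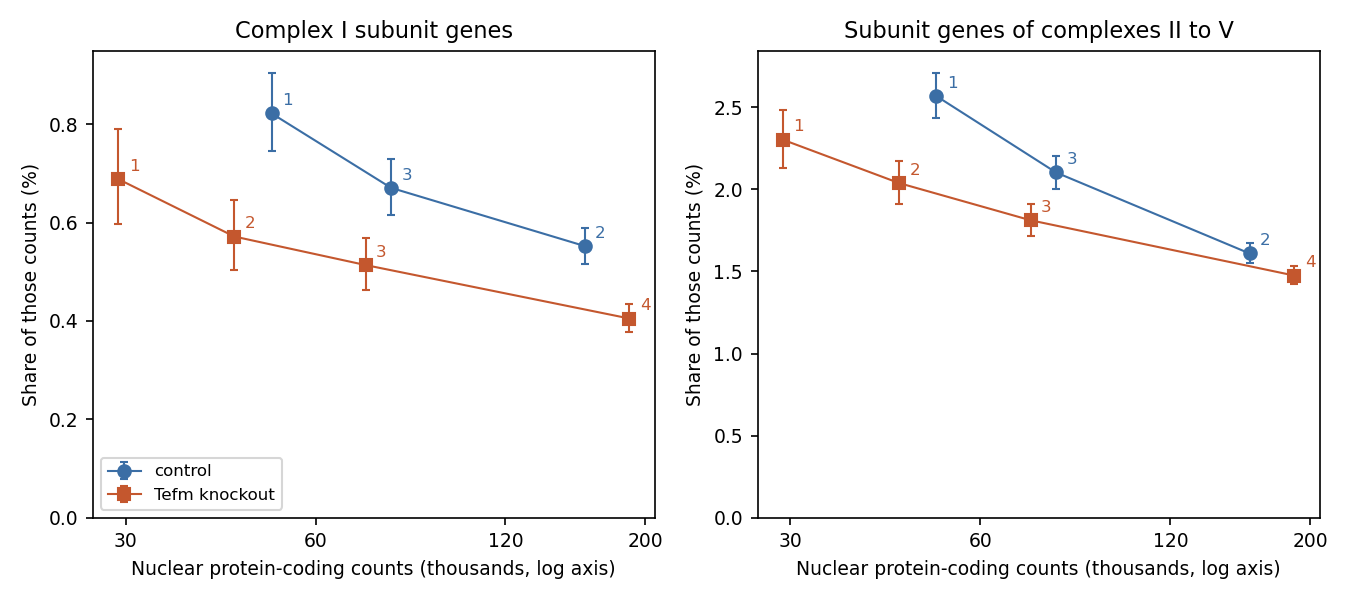
Share of nuclear protein-coding counts taken by complex I subunit genes (left) and by subunit genes of complexes II to V (right), in percent, against the number of nuclear protein-coding counts of the library (log axis); numbers name the replicate, bars are exact 95% intervals and lines join libraries of a group. In the left panel the share goes from 0.822% to 0.552% along the 3 controls and from 0.688% to 0.405% along the 4 knockouts.

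Against other proteins of mitochondria that are encoded in the nucleus, complex I subunits were also low in knockouts. The 44 nuclear subunit genes of complexes II to V had 1312, 2579 and 1662 counts across controls and 672, 909, 1305 and 2782 in knockouts. The ratio of complex I to these counts was 0.320, 0.343 and 0.319 in controls 1 to 3 and 0.299, 0.281, 0.284 and 0.275 in knockouts 1 to 4. Groups did not overlap, but the step between them was narrower than counting error at its edge, the exact 95% interval being 0.289 to 0.352 in control 3 and 0.254 to 0.351 in knockout 1. Relative to the 78 mitochondrial ribosomal protein genes, the ratio was 2.69, 2.77 and 2.50 in controls and 2.03, 1.85, 1.80 and 1.62 in knockouts, with means of 2.66 ± 0.141 (SD, n = 3) and 1.82 ± 0.169 (SD, n = 4). Mitochondrial ribosomal proteins build the ribosome that translates the ND subunits, and their own sum averaged 142 ± 16.1 CPM (SD, n = 3) for controls and 144 ± 7.48 CPM (SD, n = 4) for knockouts. Each of these ratios is a sum over members chosen with earlier results known, so they are given without a test.

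The mitochondrially encoded side of the complex was lower in knockouts relative to the nuclear side. Fragments of the 6 mt-Nd features, which encode the proton-pumping core of the membrane arm, outnumbered those of the 37 nuclear genes by a factor of 209, 769 and 792 in controls 1 to 3 and by 170, 116, 125 and 86.6 in knockouts 1 to 4. On the log2 scale the means were 8.97 ± 1.099 (SD, n = 3) and 6.92 ± 0.40 (SD, n = 4), without overlap, control 1 being nearest to the knockouts. Of the 6 features, 1 passed edgeR's test over all features (mt-Nd3, log2 fold change -3.13, edgeR adjusted p = 0.0428), where 1.73% were called lower. The median log2 fold change of the 6 was -2.75, against -0.72 for the 16 tested nuclear genes. mt-Nd6 differed from the rest, at 994 ± 589 CPM (SD, n = 3) in controls and 890 ± 821 CPM (SD, n = 4) in knockouts, with overlap (log2 difference -0.16, edgeR adjusted p = 0.953). The call of mt-Nd3 was lost without the filter and under scaling to total, mitochondrially encoded, microRNA or nuclear protein-coding counts. In those fits 0 of the 6 were called. DESeq2 and edgeR with a covariate for library composition each called 5 of the 6 lower, where 6.64% and 11.6% of all features were called lower.

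**Figure D2:**
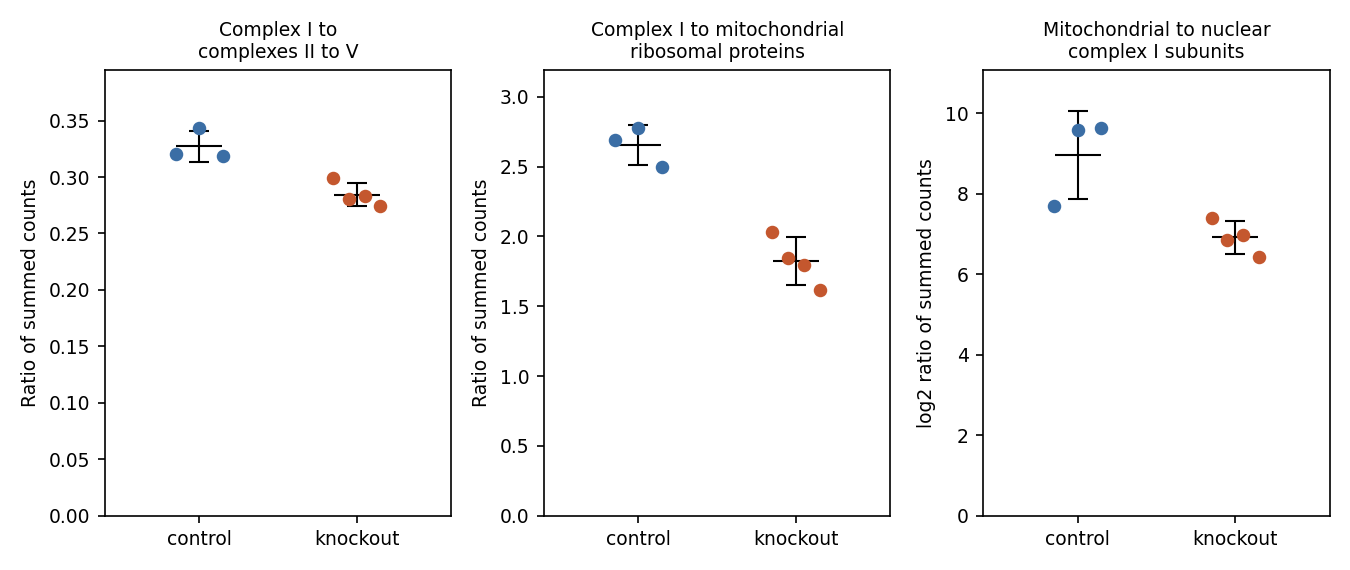
Ratios of summed counts within each library (dots) with group mean and SD (bars) for 3 control and 4 knockout libraries: complex I subunit genes to nuclear subunit genes of complexes II to V (left), complex I subunit genes to mitochondrial ribosomal protein genes (middle), and mitochondrially encoded to nuclear-encoded complex I subunits on the log2 scale (right). In all 3 panels the lowest control lies above the highest knockout.

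Gene by gene, edgeR's quasi-likelihood test over all 1505 features called 1 of the 16 tested subunit genes at an adjusted p under 0.05, Ndufv3, which fell, and 0 that rose. Over all features the test called 1.73% lower and 6.98% in either direction, and among the 1235 nuclear protein-coding genes tested it called 1.86% lower and 8.26% in either direction. A single call among 16 genes is not read as a result about the group. At an unadjusted p under 0.05, 8 of the 16 were lower in knockouts and 0 higher, where 9.37% of all features and 10.5% of nuclear protein-coding genes were lower. CPM values of the groups did not overlap, with knockouts lower, for 6 of the 16 (among them Ndufv3, Ndufa5, Ndufb8, Ndufb5 and Ndufa4), where 9.9% of all features and 10.9% of nuclear protein-coding genes had such a pattern. The median log2 fold change of the 16 was -0.72 and 15 were negative. The 1235 nuclear protein-coding genes had a median of -0.02 and 51.2% negative. Of the 44 nuclear subunit genes of complexes II to V, 26 were tested and 25 were negative, with a median of -0.36. Knockouts lay below controls without overlap for 9 of these 26, so such a fall was not particular to complex I. Scaling to total, microRNA or mitochondrially encoded counts made the median of the 16 positive (0.22, 0.21 and 0.45), with the median of all features then at 0.89, 0.88 and 1.12 against 0.02 with TMM, so directions here are relative to that median. Relative to the median of all features, the median of the members tested in each fit was negative under each of 26 alternatives. It ran from -0.92 (19 members, without control 2) to -0.48 (6 members, minimum count 20). Another scaling moves both medians together, so the scaling alternatives could change this value little. Without the filter all 37 genes entered, 33 had negative fold changes and the median was -0.61, against -0.04 over the 12891 nuclear protein-coding genes with a count.

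**Figure D3:**
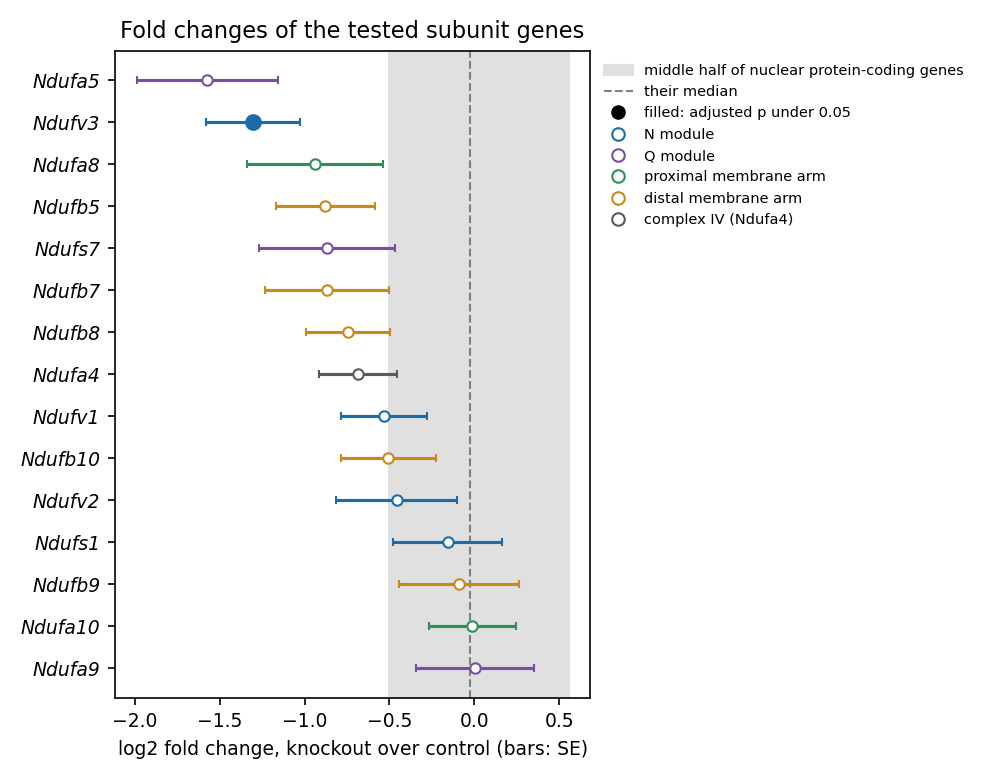
log2 fold change of knockout over control for 15 of the 16 tested genes, with SE, by edgeR with TMM scaling; colours give the part of the complex, the filled point passed the test, and the grey band spans the middle 50% of the 1235 nuclear protein-coding genes tested. Values run from -1.57 (Ndufa5) to 0.00 (Ndufa9).

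The N module, which binds NADH and carries its electrons along iron-sulfur clusters, held the gene that passed. Ndufv3 encodes an accessory subunit attached to the flavoprotein part, on chromosome 17 (31520115 to 31531331, plus strand, GRCm38). Counts were 17, 47 and 22 in the controls and 6, 9, 8 and 17 in the knockouts, or 17.1, 18.4 and 15.1 CPM against 9.16, 9.03, 5.28 and 5.36 CPM. Every knockout lay below every control. The means were 16.9 ± 1.70 (SD, n = 3) and 7.21 ± 2.18 CPM (SD, n = 4), and Ndufv3 fell by 1.31 ± 0.28 (SE) on the log2 scale (edgeR adjusted p = 0.0366). It reached the filter level in 3 controls and in 2 knockouts, and without the filter it was not called (edgeR adjusted p = 0.109). The call held in 6 of 25 alternatives, and over all 25, scalings included, the edgeR adjusted p went up to 0.975. The call was lost when any library other than knockout 1 was left out. The fold change relative to all features stayed between -1.70 and -1.12.

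Other genes of the N module differed less. Ndufs1, the large iron-sulfur subunit and the gene with most counts, was at 45.3, 25.1 and 35.6 CPM in controls and 36.7, 38.1, 27.1 and 24.9 CPM in knockouts. The groups overlapped, with knockout 4 just under the lowest control, and the log2 fold change of Ndufs1 was -0.16 ± 0.32 (SE, edgeR adjusted p = 0.833). Ndufv1, which binds the flavin and NADH, was at 19.1, 20.8 and 21.9 CPM in controls and 19.9, 11.04, 14.5 and 12.6 CPM in knockouts. Knockout 1 lay among the controls and the other three below them (log2 fold change -0.53 ± 0.25, edgeR adjusted p = 0.260). Ndufv2, which holds an iron-sulfur cluster beside it, had -0.46 ± 0.36 (edgeR adjusted p = 0.494). Of the 4 genes of the module that missed the filter, Ndufs6, an accessory subunit, had 24 counts in controls and 12 in knockouts, a ratio of 0.395 after scaling to normalised library sizes (exact 95% interval 0.180 to 0.821), and Ndufs4, Ndufa2 and Ndufa12 had ratios of 0.934, 0.833 and 1.07 with intervals that include 1. These intervals cover counting error only.

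The Q module, which reduces ubiquinone, held both the lowest and the highest fold change among tested genes. Ndufa5, an accessory subunit (chromosome 6, 24518666 to 24528013, minus strand), had 15, 26 and 14 counts in controls and 4, 4, 2 and 14 in knockouts. That is 15.1, 10.2 and 9.58 CPM against 6.11, 4.02, 1.32 and 4.42 CPM, without overlap and with knockout 3 lowest. The log2 fold change was -1.57 ± 0.42 (SE), which did not pass (edgeR adjusted p = 0.0633). Ndufs7, which carries the last iron-sulfur cluster before ubiquinone, was at 17.1, 12.9 and 20.5 CPM in controls and at 18.3, 8.03, 6.61 and 6.62 CPM in knockouts, with knockout 1 at the level of controls (-0.87 ± 0.40, edgeR adjusted p = 0.242). Ndufa9, an accessory subunit at the joint with the membrane arm, was at 18.1, 14.1 and 10.9 CPM in controls and 18.3, 7.03, 17.8 and 14.2 CPM in knockouts. The groups overlapped, with knockout 2 under the lowest control and knockout 1 just over the highest (0.00 ± 0.35, edgeR adjusted p = 0.995).

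Ndufa7, an accessory subunit of the peripheral arm, missed the filter but had the largest ratio between groups of the genes with more than 3 counts in each. Counts were 9, 14 and 3 in the controls and 0, 1, 1 and 3 in the knockouts, or 9.06, 5.49 and 2.05 CPM against 0, 1.004, 0.661 and 0.946 CPM. The 26 against 5 counts give a scaled ratio of 0.152 (exact 95% interval 0.0456 to 0.402). Without the filter edgeR called it lower (fold change -2.725 on the log2 scale, adjusted p = 0.0130) together with Ndufa5 (adjusted p = 0.0418). There 0.423% of the 15828 features and 0.465% of nuclear protein-coding genes were called lower, and 1.21% and 1.31% in either direction. Ndufa7 is named here because of its value. The other Q module genes under the filter, Ndufs3, Ndufs8 and Ndufa6, had ratios of 0.457 (0.197 to 1.01), 0.790 (0.464 to 1.34) and 1.09 (0.545 to 2.21).

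Of the proximal membrane arm, Ndufa10 and Ndufa8 were tested. Ndufa10, an accessory subunit related to nucleoside kinases, was at 20.1, 21.6 and 14.4 CPM in controls and 22.9, 19.1, 15.2 and 18.0 CPM in knockouts. Its log2 fold change was -0.01 ± 0.25 (edgeR adjusted p = 0.985), and the groups overlapped, with knockout 1 over the highest control. Ndufa8, a small protein with paired cysteine motifs, had 17.1, 14.5 and 9.58 CPM against 7.64, 12.0, 3.303 and 6.62 CPM, with knockout 2 above control 3 (-0.94 ± 0.40, edgeR adjusted p = 0.208). Among the genes of this part that missed the filter, Ndufa13 and Ndufc1 had no overlap. Their counts were 46 against 23 (ratio 0.395, 0.229 to 0.665) and 35 against 21 (ratio 0.474, 0.262 to 0.837). Without the filter 13 of the 37 members did not overlap, with knockouts lower. The share was 3.98% over all 15828 features and 4.49% over nuclear protein-coding genes, which were not matched for counts. Ndufa11 had the highest ratio of all members, 12 against 26 counts (ratio 1.71, 0.834 to 3.72), with an interval that includes 1. Ndufa1, Ndufa3 and Ndufc2 lay between 0.729 and 1.08, and Ndufs5, with 3 counts in each group, is given no ratio.

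The distal membrane arm is made of the ND4 and ND5 pumping subunits and the Ndufb accessory subunits around them. Its 10 listed genes summed to 92.6, 82.7 and 105 CPM in controls and to 59.6, 61.2, 59.5 and 63.1 CPM in knockouts, the narrowest spread among knockouts of the 4 parts. The groups did not overlap on this sum, nor did they for the Q module, while those of the N module and the proximal arm did. As shares of nuclear protein-coding counts the groups overlapped for all 4 parts. Whether the parts differ from each other was not tested. Ndufb8 was at 15.1, 18.8 and 20.5 CPM in controls and 7.64, 11.04, 13.2 and 10.7 CPM in knockouts (log2 fold change -0.75 ± 0.25, edgeR adjusted p = 0.111). Ndufb5 was at 19.1, 16.5 and 19.8 CPM against 13.7, 8.03, 6.61 and 12.0 CPM (-0.88 ± 0.29, edgeR adjusted p = 0.111). In both genes each knockout lay below each control, and neither passed. Ndufb10, another protein with paired cysteines, was at 22.1, 15.7 and 23.9 CPM against 19.9, 14.1, 11.2 and 13.6 CPM (-0.51 ± 0.28, edgeR adjusted p = 0.306), with knockout 1 between the controls. Ndufb7 had -0.87 ± 0.36 (adjusted p = 0.201) and Ndufb9 -0.09 ± 0.35 (adjusted p = 0.951). Under the filter, Ndufb11 had 34 against 21 counts and Ndufb3 15 against 10, both without overlap in CPM. Such a pattern was found for 3.98% of all features without the filter. Ndufb2 and Ndufb6 had ratios of 1.07 and 1.05, and Ndufb4 had 1 count in each group.

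Ndufa4, counted here by its symbol and a subunit of complex IV, went with the complex I genes. It was at 19.1, 15.3 and 14.4 CPM in controls and 7.64, 10.04, 11.2 and 10.4 CPM in knockouts, without overlap (-0.68 ± 0.23, edgeR adjusted p = 0.115). Its paralog Ndufa4l2, a gene known to be induced by low oxygen, had 3 counts in controls and 2 in knockouts. Taking both out left the share of nuclear protein-coding counts at 0.651% in controls and 0.524% in knockouts.

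**Figure D4:**
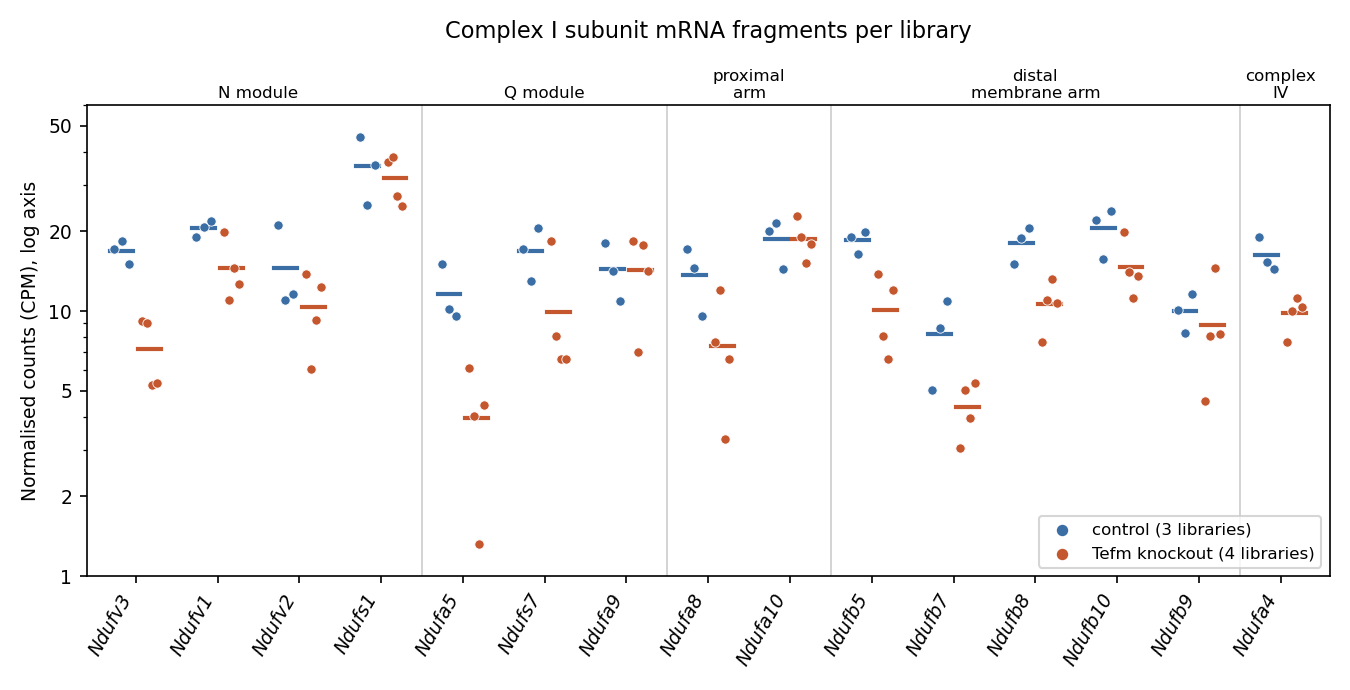
Normalised counts (CPM, log axis) of 15 of the 16 tested genes in 3 control and 4 knockout libraries, grouped by part of the complex; dots are libraries and lines are group means. Knockout dots lie below all control dots for Ndufv3, Ndufa5, Ndufb5, Ndufb8 and Ndufa4, and mix with them for Ndufs1, Ndufa9 and Ndufa10.

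When each library's short RNA to protein-coding ratio, on the log2 scale, entered as a covariate, 5 of the 16 genes were called lower and 0 higher, among them Ndufv3 (edgeR adjusted p = 0.00413), Ndufa5 (0.0193), Ndufb5 (0.0409) and Ndufb8 (0.0456). In that fit 11.6% of all features and 11.7% of nuclear protein-coding genes were called lower, and 24.7% and 25.2% in either direction. Log2 fold changes of those named were then between -1.525 (Ndufa5) and -0.75 (Ndufb8). The number called ranged from 0 without control 2 and 1 without knockout 4 to 6 without knockout 1. DESeq2 called 3 of the 16 lower (among them Ndufa5 and Ndufv3), where 6.64% of all features and 7.13% of nuclear protein-coding genes were called lower, and 15.3% and 17.2% in either direction. In the authors' deposited table, 3 of the 32 members with an adjusted p were lower at an adjusted p under 0.05, Ndufv3 (0.0158), Ndufa5 (0.0335) and Ndufa7 (0.0335), where 2.07% of the 4105 features with an adjusted p were. That table comes from the same libraries and is no separate evidence.

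The proteins that assemble complex I were too rare to test. None of the 17 assembly factors found passed the filter, and their summed CPM averaged 29.4 ± 1.33 (SD, n = 3) for controls and 24.3 ± 1.37 (SD, n = 4) for knockouts, without overlap. As a share of nuclear protein-coding counts the groups overlapped, at 0.0529% ± 0.00759 (SD, n = 3) and 0.0502% ± 0.00756 (SD, n = 4). Acad9, an assembly factor of the proximal membrane arm, had 0, 5 and 3 counts in controls and 3, 5, 8 and 15 in knockouts, and Ndufaf1, its partner, had 3, 10 and 5 counts and 0, 0, 3 and 7. These were chosen after their values were seen, and single genes at such counts are given without a test. Ndufab1 had 6, 9 and 9 counts in controls and 3, 3, 1 and 6 in knockouts.

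Promoters of respiratory chain genes are known for sites of the transcription factors NRF1 and YY1. They were searched on both strands in RefSeq windows of GRCm38.p6 that run from 250 bases before to 50 after each annotated start. There were 34 windows for 32 members. The NRF1 motif searched was GCGC, any base, then TGCGC, and it was in 8 of 34 windows (23.5%) and in 4.603% of all 32851 windows. Both windows of Ndufa5 are among the 8, and they overlap and share the same site. The YY1 motif AAGATGGCG was in 14.7% of member windows and 1.40% of all, the ETS motif CCGGAAG in 11.8% and 8.86%, and the estrogen-related receptor motif AAGGTCA in 8.82% and 4.72%. Stretches are shown for Ndufv3, the gene that passed, and for Ndufa5 and Ndufa8, the tested genes with the lowest fold changes beside it, 5′ to 3′ along the gene and with the NRF1 motif (in Ndufa5 its reverse complement) in capitals.
Ndufv3: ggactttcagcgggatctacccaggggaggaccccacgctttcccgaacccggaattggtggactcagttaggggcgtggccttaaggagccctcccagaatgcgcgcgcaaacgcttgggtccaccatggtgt
Ndufa5: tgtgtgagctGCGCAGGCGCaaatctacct
Ndufa8: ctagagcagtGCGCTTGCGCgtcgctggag
They lie at chr17:31519981-31520114 (plus strand, the 134 bases before the start), chr6:24527697-24527726 (minus strand) and chr2:36049349-36049378 (minus strand). GENCODE M21 places exon sequence over the last pair, upstream of the RefSeq start, so only 30 bases around each motif are given. None of the 4 motifs is in the Ndufv3 stretch or its window, which says only that these letters are not there. Ndufa9 and Ndufs7, with log2 fold changes of 0.00 and -0.87, each hold a YY1 motif. A match is a description of the letters, not of binding.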

How the data were processed

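RNA from crude heart mitochondria had been sequenced as small RNA on a MiSeq, per the labels' protocols. The authors deposited raw counts per feature, in whole numbers, and a normalised signal, which is each raw count over a library factor. Their deposited comparison table gives a log2 fold change, a Wald score and p-values, per the file headers. Per the submitters' processing notes the build was mm10 and the tools included featureCounts, DESeq2 1.14.1, Bowtie2 and cutadapt 1.10. Annotation release, strand setting and multi-mapping are not stated. Raw counts were tested with edgeR 4.0.16 (R 4.3.3; quasi-likelihood, TMM, default filter, 2 groups, two-sided), adjusted by Benjamini-Hochberg over all features tested and called at 0.05. The SE is the fold change divided by the root of the F value. CPM is edgeR's, on TMM-scaled library sizes. Intervals are exact 95% intervals for counting error only. No molecular identifiers are described. Annotation came from GENCODE M21 (GRCm38), where all 37 members matched by identifier, 24 with the same version. The procedure was tested on simulated data. It recovered 10% of 2-fold, 52% of 4-fold, 82% of 8-fold and 94% of 16-fold changes, with 4 false calls. Most changes of 2-fold were thus missed there. DESeq2 1.42.0, other scalings, filters, a composition covariate, a replicate block and each library left out were tried. Named with values were Tefm, the members tested, and libraries in full for members called, the 6 with the smallest adjusted p and the 5 with most counts. Values of 1 tested member are not reported here singly, and it stays in the sums and counts. Members, lists, covariate and rule were chosen with earlier results of these data known. Other marker lists summed as follows in controls and knockouts, in CPM: endothelium 72.5 to 142 and 28.1 to 82.0, fibroblast 249 to 427 and 200 to 596, and erythroid 11.8 to 19.2 and 5.02 to 18.3.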

Additional observations from a re-analysis of the deposited data

Results flagged for a closer look

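Of 24 sets of 4 knockout values checked, 1 had a library far from the others. For Ndufs7, which carries the last iron-sulfur cluster before ubiquinone, knockout 1 was at 18.3 CPM, at the level of the controls, and the other three were between 6.61 and 8.03 CPM. Chance gives about 1 such set in 20.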

How the results depend on the processing

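The number of members called (1 with all libraries) was 2 under RLE scaling, without a filter and in a fit to nuclear protein-coding genes alone, 3 by DESeq2, 5 with the composition covariate, and 0 under scaling to total, nuclear protein-coding, mitochondrially encoded or microRNA counts, under a minimum count of 5 or 20 and with the replicate block. With single libraries left out it was 0 to 1. With the covariate and single libraries left out it was 0 to 6. Over all features, 105 were called, against 11 under total-count scaling, 8 under scaling to mitochondrially encoded counts, 0 under scaling to microRNA counts, 192 without a filter, 223 in nuclear protein-coding genes alone, 371 with the covariate, 231 by DESeq2, 0 with the replicate block and 0 to 79 with single libraries left out, the lowest being without control 2 or control 3. The median log2 fold change of tested members was 0.22, 0.45 and 0.21 under scaling to total, mitochondrially encoded and microRNA counts, -0.54 under scaling to nuclear protein-coding counts and -0.50 at a minimum count of 20. Relative to all features it was -0.56 without a filter, -0.59 and -0.48 at minimum counts of 5 and 20, and -0.92 to -0.61 with single libraries left out. As a share of all counts the members were higher in knockouts by 0.0076 percentage points. The cause was not tested.

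Members near 0 changed sign relative to all features: Ndufa10 was at 0.0077 under scaling to nuclear protein-coding counts, 0.034 at a minimum count of 20 and 0.0071 with the replicate block. Ndufa9 was at 0 under RLE scaling, 0.040 and 0.084 under scaling to total and microRNA counts, 0.027 in nuclear protein-coding genes alone and 0.042 with the covariate. With single libraries left out, Ndufa10 ranged from -0.28 to 0.096, Ndufa9 from -0.28 to 0.31 and Ndufb9 from -0.50 to 0.099. Of 404 member values under alternatives, 27 changed sign, all of Ndufa10, Ndufa9 or Ndufb9.

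The labels number replicates in both groups without saying that numbers pair the mice. Deviations of same-numbered libraries had correlations of 0.53, -0.80 and 0.32. The highest over all pairs were 0.87 for control 2 with knockout 4 and 0.78 for control 1 with knockout 2. Numbers were therefore not taken as pairs, and what libraries of the 2 groups share was not tested. With the replicate block knockout 4 stood alone in its block and 0 of the 16 members were called. Adding rows of other gene types that carry a member symbol added nothing, since none was listed. Fits with the same genes tested or with the covariate and a library left out, and the share without Ndufv3, were chosen after seeing the data. Members had 2 to 343 counts each, which limits what single genes can show.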
